A study of Mus musculus with 12 samples.

Results

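MHC class II antigen presentation was followed in mouse liver through 8 of the 18560 genes measured, taken by symbol: the class II chains H2-Aa, H2-Ab1 and H2-Eb1, the invariant chain Cd74, the peptide exchange subunits H2-DMa and H2-DMb1, the transactivator Ciita and the protease Ctss. Livers of mice aged 12 months gave 12 RNA-sequencing libraries in 4 groups of 3: OXR1A-/- males, WT males, OXR1A-/- females and WT females. OXR1A is an isoform made from Oxr1, a gene that protects cells against oxidative damage. The groups are described by genotype, sex, age and tissue, and how the allele was made or how the mice were kept is not given in the labels. The study asks about the livers of males without the isoform. Values are FPKM, fragments per kilobase of transcript scaled to the mapped fragments of each library, so levels can be set side by side between genes.

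MHC class II molecules show peptides from engulfed material to CD4+ T cells. The α and β chains are assembled in the endoplasmic reticulum around the invariant chain, which fills the groove and guides the complex to endosomes, where cathepsin S trims it down to the fragment called CLIP and the H2-DM dimer exchanges CLIP for antigenic peptide. Transcription of these genes depends on CIITA, which binds no DNA itself and is held at class II promoters by factors on the X and Y boxes; interferon gamma induces it in cells that do not make it constantly. In healthy liver, class II is made mainly by Kupffer cells, dendritic cells, B cells and, at lower level, sinusoidal endothelium, and hardly at all by hepatocytes. In whole-liver RNA, fewer cells of a type and less RNA per cell cannot be told apart.

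The 5 H2 genes lie together on chromosome 17, within 197.0 kb between positions 34119693 and 34316674 (GRCm38). Ciita lies on chromosome 16 (10480014 to 10531064) and Ctss on chromosome 3 (95526786 to 95556405). RefSeq promoter windows of build GRCm38.p6 were on hand for 5 of the 8 members, and the 150 bases just before the transcription start are shown for 4 of them, because 3 carry the X and Y arrangement and the fourth, that of Ctss, does not. Capitals mark, in the H2 genes, the letters GNAAC of the X box and ATTGG of the Y box where both stand on the same strand with 25 to 40 bases from the first letter of one to the first letter of the other, and, in Ctss, an interferon regulatory factor element, GAAA followed after 2 bases by another GAAA, which begins 21 bases before the start and overlaps a match to GNAAC. Each is given 5′ to 3′ on the gene's own strand.
H2-Aa: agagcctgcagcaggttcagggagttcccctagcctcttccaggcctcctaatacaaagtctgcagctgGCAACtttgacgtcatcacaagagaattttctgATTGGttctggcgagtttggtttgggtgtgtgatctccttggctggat
H2-Eb1: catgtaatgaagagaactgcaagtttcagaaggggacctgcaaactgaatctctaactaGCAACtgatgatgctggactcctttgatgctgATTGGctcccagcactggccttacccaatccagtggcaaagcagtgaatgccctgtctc
H2-DMb1: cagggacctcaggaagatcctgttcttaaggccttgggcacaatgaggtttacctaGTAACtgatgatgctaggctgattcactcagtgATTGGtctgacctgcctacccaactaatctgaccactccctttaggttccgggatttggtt
Ctss: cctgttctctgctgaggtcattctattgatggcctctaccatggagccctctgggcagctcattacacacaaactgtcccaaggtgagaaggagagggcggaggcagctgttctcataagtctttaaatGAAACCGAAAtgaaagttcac
The H2-Aa stretch is chr17:34287824-34287973 on the minus strand. The others are on the plus strand, at chr17:34305717-34305866 for H2-Eb1, chr17:34153041-34153190 for H2-DMb1 and chr3:95526636-95526785 for Ctss.

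In the H2 genes the X letters began 81 bases before the start in H2-Aa, 91 in H2-Eb1 and 94 in H2-DMb1, with the Y letters 33, 32 and 33 bases further on. The 2 windows of H2-DMa held no such pair. They end at positions 34122831 and 34125517, inside the recorded span of the gene (34119693 to 34139101). The stretch before the first position of that span was not searched. Over 32851 promoter windows of 250 bases, searched on both strands, 79.6% held GNAAC, 33.8% held ATTGG and 2.25% held the pair at this spacing. The interferon regulatory factor element stood in 2.98%. These matches are descriptions of the letters in the windows.

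Among the libraries, OXR1A-/- male 2 stood apart. It was the highest of the 12 in 8 of 8 members, while it was the highest in 2572 of the 11514 tested genes (22.3%). Only 80 tested genes (0.695%) exceeded the median of the other 11 libraries by at least 2 on the log2 scale in this library. Most of those 11 were female, so genes higher in males can show an excess too. Eif2s3y ranked 14th (35.7 FPKM, highest other library 35.0) and Cyp2d9 18th (262 FPKM, highest other 686). The largest such excesses were those of Tgtp1 (709 FPKM, highest other library 45.0), Ubd (117 FPKM, highest other 6.36), Gm4841 (271 FPKM, highest other 26.7) and Cxcl9 (245.0 FPKM, highest other 19.6). Tgtp1 and Cxcl9 are textbook targets of interferon gamma, a GTPase of cell-autonomous defence and a chemokine for T cells. Member results that rest on this library are given with and without it.

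FPKM sums ran between 526203 and 667434, and relative depth spanned 1.0 to 1.5, highest in WT male 2, which also read long transcripts low (a slope of -0.214 log2 units per doubling of length, the other 11 between -0.091 and 0.122). WT male 2 was also the highest WT male in 8 of 8 members, and the part of its depth or length trend in that was not tested. Xist reached 0.82 FPKM in OXR1A-/- male 3, and Eif2s3y 0.85 in OXR1A-/- female 1 and 1.89 in WT female 1, small traces of the other sex. Oxr1 as a whole gene stood at 22.1 to 25 FPKM in OXR1A-/- males, 12.1 to 23.2 in WT males, 19.7 to 21.0 in OXR1A-/- females and 17.4 to 20.6 in WT females; it covers every isoform and so does not check the absence of OXR1A. Hepatocyte markers, led by albumin, marked the tissue as liver, with 42680 to 59940 FPKM summed over 4 genes.

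The class II chains were at clearly measurable levels in every library. H2-Aa, the α chain of the I-A molecule, stood at 37.2, 233 and 18.1 FPKM in OXR1A-/- males 1, 2 and 3, against 22.5, 49.99 and 25.8 FPKM in WT males. In females it stood at 40.7, 35.0 and 69.1 FPKM in OXR1A-/- livers and at 55.0, 37.0 and 48.4 FPKM in WT livers. OXR1A-/- males thus held both the highest and the lowest of the 12 values, and the ranges of the genotypes overlapped in each sex.

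H2-Ab1, the β chain of the same molecule, followed its partner. It stood at 32.3, 268 and 13.97 FPKM in OXR1A-/- males 1 to 3, against 18.8, 37.3 and 20.3 FPKM in WT males. Females gave 37.6, 28.2 and 58.4 FPKM in OXR1A-/- livers and 58.8, 34.2 and 39.1 FPKM in WT livers. H2-Eb1, the β chain of I-E, was lower, at 15.1, 128 and 7.06 FPKM in OXR1A-/- males and 8.05, 22.3 and 10.7 FPKM in WT males. In females it stood at 17.8, 14.9 and 29.6 FPKM without OXR1A and at 28.1, 14.9 and 18.2 FPKM in WT. In both genes OXR1A-/- male 2 was far above the rest and OXR1A-/- male 3 was the lowest of all 12.

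Cd74, the invariant chain, on chromosome 18 (60803849 to 60812652), was the most abundant member in each library. It stood at 84.95, 587 and 45.6 FPKM in OXR1A-/- males 1 to 3, against 44.8, 117 and 63.8 FPKM in WT males. Females gave 102.5, 83.5 and 163 FPKM in OXR1A-/- livers and 144, 84.6 and 123 FPKM in WT livers. Without OXR1A-/- male 2, no male library exceeded 117 FPKM, whereas 3 of the 6 female values did, 1 of them in OXR1A-/- female 3, which was the highest of the 6 females in 6 of the 8 members.

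The peptide exchange subunits were low. H2-DMa stood at 2.75, 21.9 and 1.54 FPKM in OXR1A-/- males 1 to 3, against 1.18, 2.61 and 1.23 FPKM in WT males, and at 3.47, 2.60 and 4.81 FPKM in OXR1A-/- females, against 4.0, 3.20 and 3.58 FPKM in WT females. H2-DMb1 stood at 4.54, 33.4 and 2.64 FPKM in OXR1A-/- males, against 2.02, 3.64 and 3.02 FPKM in WT males, and at 4.63, 4.42 and 7.22 FPKM in OXR1A-/- females, against 6.67, 5.22 and 4.61 FPKM in WT females. For both subunits, every WT female lay above every WT male. Of the 31-base words of the H2-DMb1 transcripts, 25% also occur in its neighbour H2-DMb2, so the split between these copies is uncertain; between H2-Eb1 and H2-Ab1 or H2-Eb2 fewer than 1% were shared.

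Ciita was near the limit of detection. It stood at 0.55, 4.24 and 0.07 FPKM in OXR1A-/- males 1 to 3, against 0.26, 0.32 and 0.21 FPKM in WT males, and at 0.46, 0.08 and 0.71 FPKM in OXR1A-/- females, against 0.72, 0.39 and 0.42 FPKM in WT females. Only OXR1A-/- male 2 passed 1 FPKM, so the gene failed the filter of at least 1 FPKM in at least 3 libraries and 7 of the 8 members were tested.

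Ctss, cathepsin S, a protease of macrophages and other phagocytes that trims the invariant chain, behaved differently from the chains. It stood at 37.2, 133 and 37.5 FPKM in OXR1A-/- males 1 to 3, against 17.1, 29.2 and 21.2 FPKM in WT males. All 3 OXR1A-/- males were above all 3 WT males, and Ctss was the only member for which OXR1A-/- males 1 and 3 were both above every WT male. Females gave 44.4, 45.1 and 65.4 FPKM in OXR1A-/- livers and 44.4, 38.4 and 51.2 FPKM in WT livers, with overlapping ranges.

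**Figure D1:**
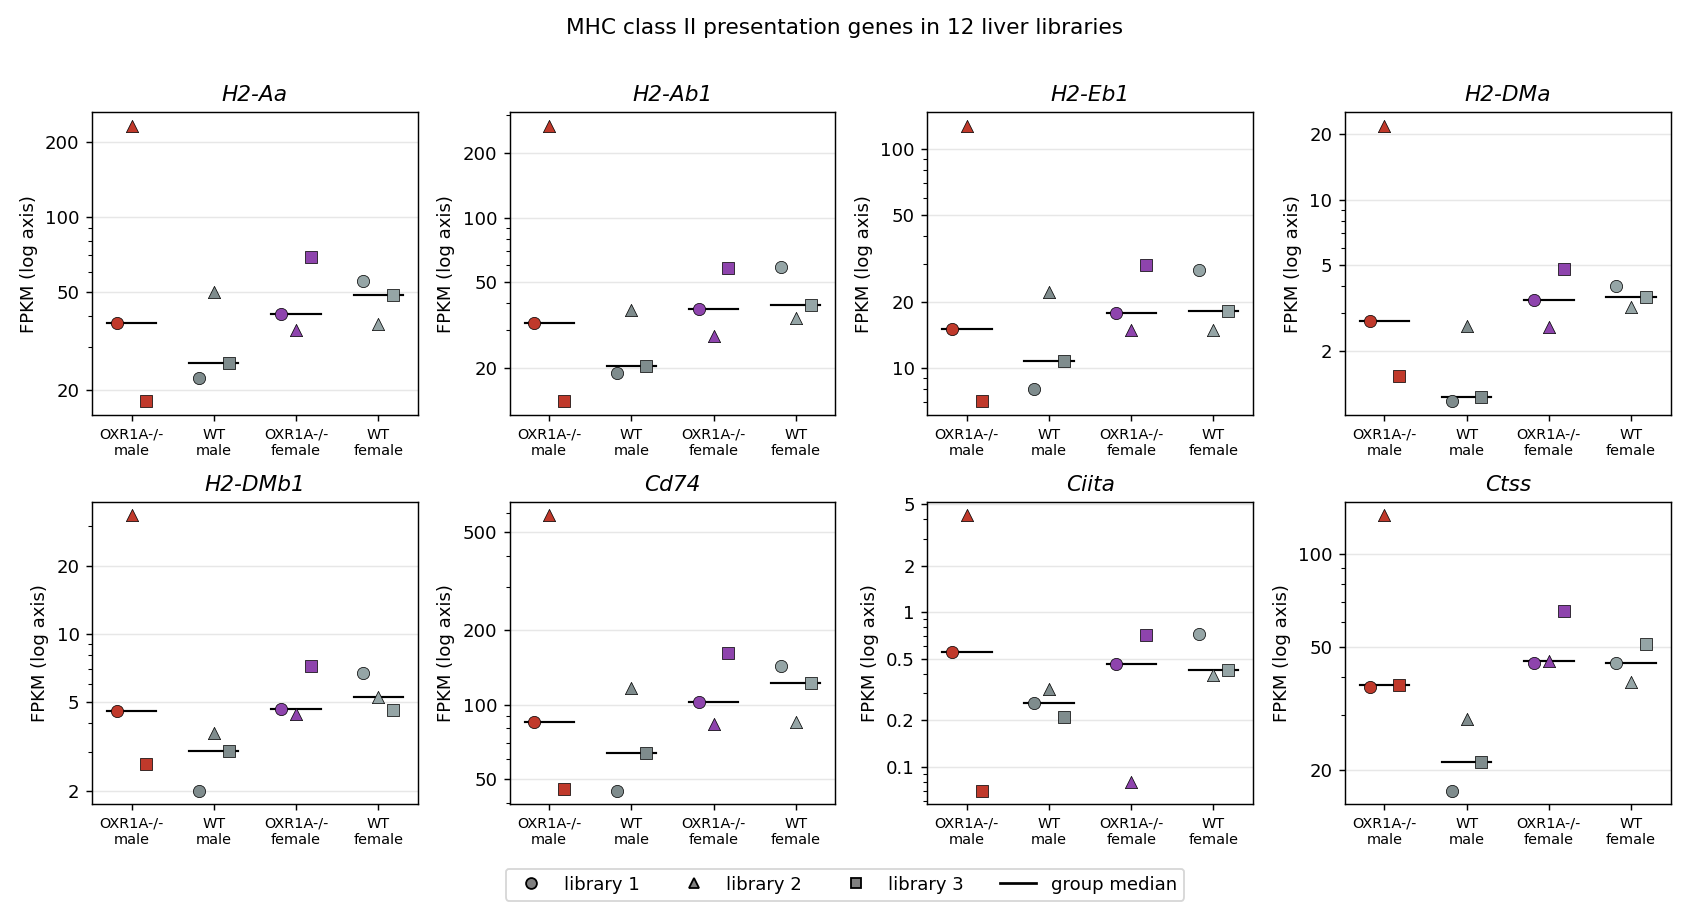
FPKM (log axis) of the 8 members in 12 liver libraries, by group; marker shapes give the library number within a group and bars the group median. OXR1A-/- male 2 (triangle, left column) is the highest library in all 8 panels, and 4 panels (H2-DMa, H2-DMb1, Ciita and Ctss) show every WT male below every WT female.

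Group medians placed WT females first, then OXR1A-/- females, OXR1A-/- males and WT males in the 3 chains, Cd74, H2-DMa and H2-DMb1. For Ctss the order was OXR1A-/- females, WT females, OXR1A-/- males and WT males. Ciita had OXR1A-/- males first (0.55 FPKM), then OXR1A-/- females (0.46), WT females (0.42) and WT males (0.26), an order in which OXR1A-/- males come first through OXR1A-/- male 2, since the other values of that group were 0.55 and 0.07 FPKM. WT males had the lowest median in 8 of 8 members. Among neighbours in these orders, the ranges of OXR1A-/- females and WT females overlapped in 8 of 8 members, those of OXR1A-/- males and OXR1A-/- females likewise in 8 of 8, and those of OXR1A-/- males and WT males in 7 of 8. WT females and WT males, neighbours in Ciita, did not overlap.

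In males, OXR1A-/- against WT, the difference on log2(FPKM + 1) was positive for 7 of 7 tested members, with a median of 1.02 against 0.19 over all tested genes. None passed limma at an adjusted p under 0.05; 1 of the 7, Ctss, had an unadjusted p under 0.05. That count was 7 of 7 without OXR1A-/- male 3 (median 1.75, against 0.24 over all tested genes). It was 3 without OXR1A-/- male 1 (median 1.33, against 0.19), and still none passed. In these 2 fits 578 and 105 of all tested genes passed limma at an adjusted p under 0.05. Their shares of unadjusted p under 0.05 are not given, so these 2 counts of members cannot be set against all genes. With all 12 libraries, 2.55% of all tested genes passed in this comparison (294 of 11514), and 23.9% had an unadjusted p under 0.05. The differences were 0.80 ± 0.70 (SE) for H2-Aa, 1.02 ± 0.79 for H2-Ab1, 0.92 ± 0.78 for H2-Eb1, 0.92 ± 0.72 for Cd74, and 1.21 with SE of 0.61 for H2-DMa and 0.62 for H2-DMb1. The limma adjusted p-values of these 6 ran between 0.244 and 0.484. Ctss had 1.34 ± 0.40, limma adjusted p = 0.0890, and its mean FPKM was 3.08-fold that of WT males. It was the only member without overlap between the groups, and 21.2% of tested genes were likewise higher without overlap.

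Without OXR1A-/- male 2 the fitted values of the chains and Cd74 were negative. The difference in males was then -0.23 ± 0.39 (SE) for H2-Aa, -0.18 ± 0.41 for H2-Ab1, -0.25 ± 0.44 for H2-Eb1 and -0.15 ± 0.42 for Cd74, 4 members whose values in OXR1A-/- males 1 and 3 did not exceed the highest WT male. H2-DMa and H2-DMb1 stayed positive at 0.25 and 0.23, each ± 0.26, and Ctss at 0.74 ± 0.23. These signs rest on WT male 2 as well. With both libraries left out, an alternative added after the data were seen, all 7 members were positive, with a median of 0.22 against 0.08 over all tested genes. With only OXR1A-/- male 2 left out, none of the 7 passed limma, with adjusted p-values of 0.166 for Ctss and 0.669 to 0.873 for the others, and 0.691% of all tested genes did. Set against the mean of WT males, OXR1A-/- male 2 alone stood 7.10-fold higher in H2-Aa, 10.5-fold in H2-Ab1, 9.32-fold in H2-Eb1, 7.82-fold in Cd74, 13.1-fold in H2-DMa, 11.5-fold in H2-DMb1 and 5.93-fold in Ctss. Among the 11514 tested genes, its log2 excess over the median of the other 11 libraries ranked 32nd for H2-Eb1 (3.0) and 35th for H2-Ab1 (2.93). Ctss ranked 112th, the lowest-ranked of the 7. That ranking also holds genes higher in males, since most of the other 11 libraries were female.

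In females, OXR1A-/- against WT, the members lay close to 0. The log2 differences ran between -0.11 ± 0.79 (SE) for H2-Ab1 and 0.19 ± 0.40 for Ctss, 3 of 7 being positive, and the ranges overlapped for 8 of 8 members, where 17.6% of tested genes did not overlap in either direction. None of the 7 passed limma and none had an unadjusted p under 0.05, where 0.0174% of all tested genes passed (2 of 11514) and 6.13% had an unadjusted p under 0.05. All groups share 1 estimate of spread, so the SE, 0.40 to 0.79, are those of the male comparison.

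The test of whether the genotype difference itself differed between the sexes gave positive values for 7 of 7 members, between 0.80 ± 0.99 (SE) for H2-Aa and 1.24 ± 0.87 for H2-DMb1, none of which passed limma or had an unadjusted p under 0.05; 0.0261% of all tested genes passed and 9.03% had an unadjusted p under 0.05. Averaged over the sexes, OXR1A-/- against WT, the differences ran between 0.40 and 0.77, none passed, and Ctss (0.77 ± 0.29, limma adjusted p = 0.172) alone had an unadjusted p under 0.05, where 1.46% of all tested genes passed and 20.1% had an unadjusted p under 0.05. Leaving out 1 library moved these counts of unadjusted p under 0.05. Beside them stands the number of all tested genes that passed limma at an adjusted p under 0.05. The shares of all tested genes with an unadjusted p under 0.05 in those fits are not given. Without OXR1A-/- male 3 the counts of members were 3 for the interaction (19 genes) and 3 for the mean of the sexes (149 genes). Without OXR1A-/- male 1 the interaction had 1 (1 gene), and without OXR1A-/- female 3 the mean of the sexes had 0 (37 genes). The values of H2-Aa, H2-Ab1, H2-Eb1 and Cd74 were negative in each without OXR1A-/- male 2. With WT male 2 left out too, all 7 members were positive in each, with medians of 0.25 for the interaction and 0.09 for the mean of the sexes.

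The members were then compared between WT males and WT females. Fitted values of WT males were lower in 7 of 7 tested members, by 0.57 ± 0.70 (SE) on the log2 scale in H2-Aa up to 0.98 ± 0.40 in Ctss, with a median of -0.75 against -0.21 over all tested genes. With all 12 libraries none passed limma, and Ctss (adjusted p = 0.121) alone had an unadjusted p under 0.05. Over all tested genes 13.4% passed and 32.8% had an unadjusted p under 0.05. The count of members with an unadjusted p under 0.05 was 0 without WT male 1, WT male 3, WT female 1 or WT female 3. In those fits 1307, 1080, 703 and 963 of all tested genes passed limma. The count was also 0 under median-ratio scaling (median -0.55, against -0.01 over all tested genes) and quantile normalization (median -0.53, against 0.01). There 1039 and 1085 of all tested genes passed limma. Without both OXR1A-/- male 2 and WT male 2 the count was 7 of 7 (median -1.06, against -0.13 over all tested genes). In that fit 1783 of all tested genes passed limma at an adjusted p under 0.05. For these alternative fits the shares of all tested genes with an unadjusted p under 0.05 are not given. The counts of members therefore cannot be set against all genes. In 4 of the 8 members, H2-DMa, H2-DMb1, Ciita and Ctss, every WT male lay below every WT female, as was the case for 34.1% of tested genes. OXR1A-/- male 2 is in neither group, yet it enters the common estimate of spread. Without it the differences of H2-DMa (-0.82 ± 0.24), H2-DMb1 (-0.75 ± 0.23) and Ctss (-0.98 ± 0.20) were the same size and these 3 members fell, with limma adjusted p-values of 0.0366, 0.0449 and 0.00893, where 15.5% of the 11436 genes then tested fell. They also fell when only the libraries of WT males and WT females were fitted, with limma adjusted p-values of 0.0441, 0.0483 and 0.0234, where 10.4% of all tested genes fell.

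Among OXR1A-/- livers, males against females, the differences were 0.17 ± 0.40 (SE) for Ctss to 0.49 ± 0.62 for H2-DMb1, with overlap in 8 of 8 members, where 22.1% of tested genes did not overlap. None passed limma or had an unadjusted p under 0.05, where 3.67% of all tested genes passed and 15.5% had an unadjusted p under 0.05. Without OXR1A-/- male 2 the differences of all 7 were negative, between -0.43 for Ctss and -0.88 for H2-Eb1. None of them passed limma, where 3.16% of all tested genes did. With WT male 2 left out too, 6 of 7 had an unadjusted p under 0.05 and none passed, where 659 of all tested genes passed limma. The share of all tested genes with an unadjusted p under 0.05 is not given for that fit. OXR1A-/- male 3 lay below every one of the 6 females in 8 of 8 members. The share of all tested genes for which this held is not given, so it cannot be called particular to the members.

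**Figure D2:**
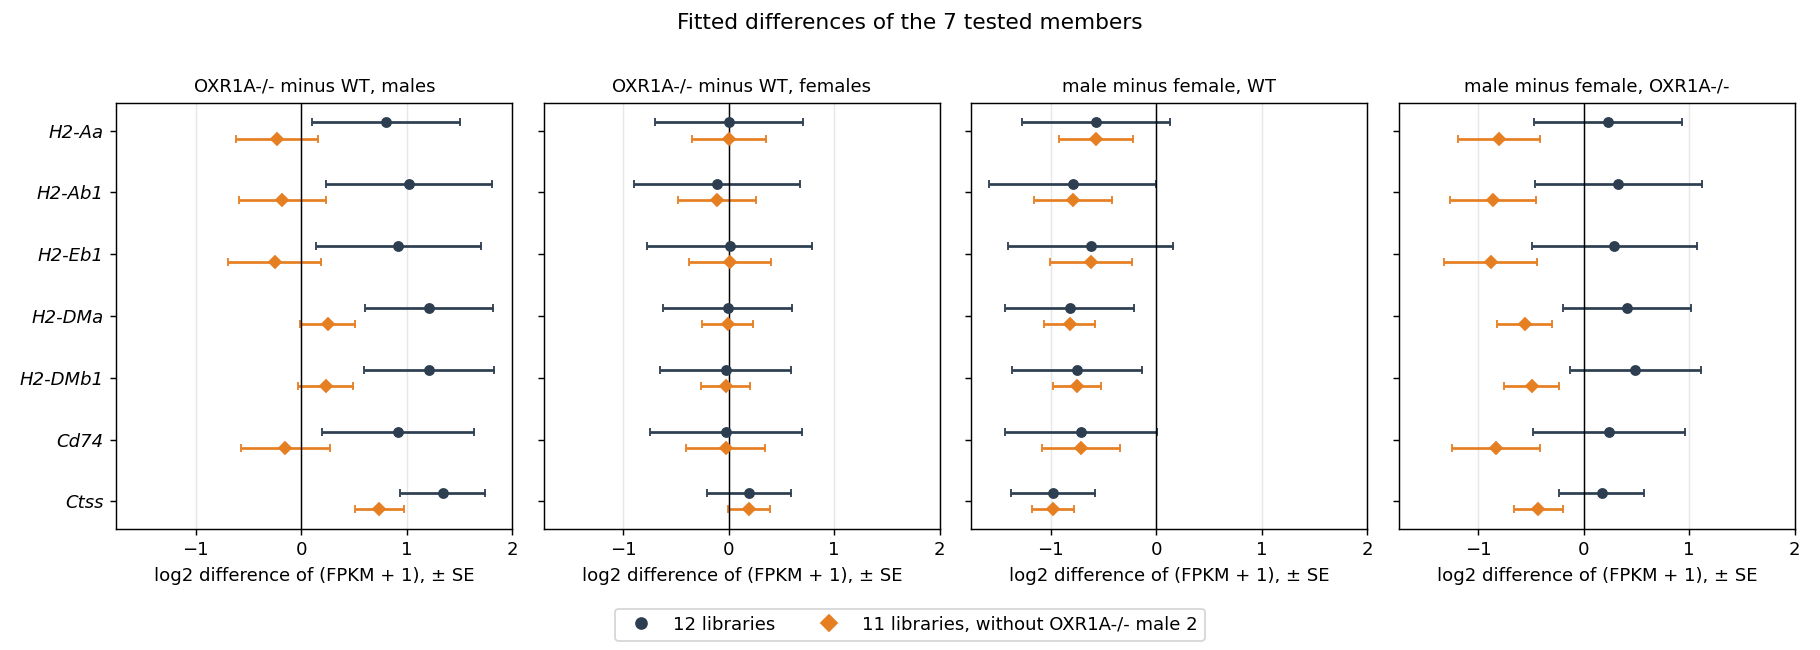
Fitted log2 differences of (FPKM + 1) with SE for the 7 tested members in 4 comparisons, from 12 libraries (circles) and from 11 libraries without OXR1A-/- male 2 (diamonds). In males the chains and Cd74 move across 0 when that library is left out (H2-Aa 0.80 against -0.23), though all 7 members were positive (median 0.22) with WT male 2 left out too, which is not drawn, whereas the WT male minus female differences keep their values with narrower SE.

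The chains and the invariant chain kept nearly fixed proportions. H2-Aa stood at 0.383 to 0.503 of Cd74 over the 12 libraries, H2-Ab1 at 0.306 to 0.456 and H2-Eb1 at 0.148 to 0.218, although Cd74 itself spanned 13.1-fold. In OXR1A-/- male 2 these ratios were 0.396, 0.456 and 0.218, the last pair being the highest of all libraries. H2-DMa stood at 0.0193 to 0.0378 of Cd74 and H2-DMb1 at 0.0312 to 0.0617. Ctss did not keep step: its ratio to Cd74 was 0.227 in OXR1A-/- male 2, the lowest, and 0.823 in OXR1A-/- male 3, the highest. Over all 12 libraries the highest value exceeded the lowest 12.8 to 19.2-fold in the H2 genes and Cd74, 7.78-fold in Ctss and 60.6-fold in Ciita. Over the 11 libraries without OXR1A-/- male 2 it did so 3.57 to 4.21-fold, 3.82-fold and 10.3-fold.

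**Figure D3:**
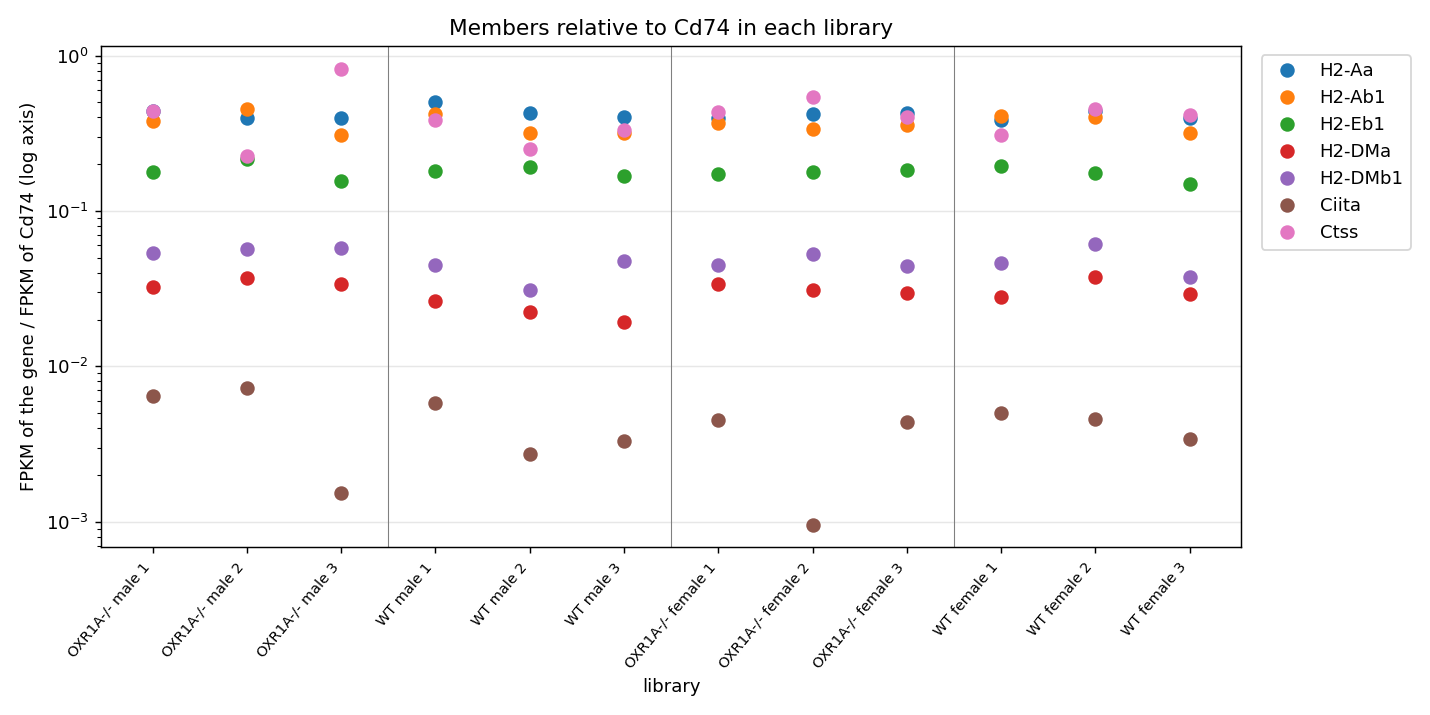
FPKM of each other member divided by FPKM of Cd74 (log axis) in every library, groups separated by vertical lines. H2-Aa, H2-Ab1 and H2-Eb1 form flat bands, while Ctss runs between 0.227 in OXR1A-/- male 2 and 0.823 in OXR1A-/- male 3.

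The other genes of the pathway were read from lists by role. Among the other class II genes, H2-DMb2, H2-Oa and H2-Ob were tested; H2-Oa and H2-Ob make the inhibitor of H2-DM. In males none of the 3 passed limma and none had an unadjusted p under 0.05, with differences of 0.49 ± 0.53 (SE), 0.14 ± 0.31 and 0.25 ± 0.34, which were -0.14, -0.29 and -0.13 without OXR1A-/- male 2; that of H2-Oa was -0.12 after quantile normalization. In OXR1A-/- male 2 they stood at 8.11, 2.16 and 2.25 FPKM. H2-Eb2 stayed at or below 0.67 FPKM and H2-Ea-ps was listed at 0 in 11 libraries and at 0.04 FPKM in OXR1A-/- female 3.

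Of 8 genes that make peptides in endosomes, 2 rose and 6 did not pass in OXR1A-/- against WT males. Ctsc, which activates granule proteases, stood at 41.6, 93.3 and 41.5 FPKM in OXR1A-/- males and 26.5, 22.1 and 24.4 FPKM in WT males, 1.13 ± 0.25 (SE) on the log2 scale, limma adjusted p = 0.0447. Lgmn, asparagine endopeptidase, stood at 39.1, 54.4 and 39.5 FPKM in OXR1A-/- males and 19.4, 26.2 and 24.8 FPKM in WT males, 0.88 ± 0.16, limma adjusted p = 0.0217. Both separated the groups with all 3 OXR1A-/- males above, as Ctss did. Without OXR1A-/- male 2, Ctsc passed limma (0.75 ± 0.13, adjusted p = 0.0330) and Lgmn did not (0.73, adjusted p = 0.0769). The call of Lgmn was also lost without WT male 1 or WT male 3, and that of Ctsc was lost without any 1 of the WT males or of the 6 females, with limma adjusted p-values up to 0.110. In females none of the 8 passed. WT males against WT females, Ctsc, Ctsb and Lgmn fell by 1.76, 0.67 and 0.87 on the log2 scale (limma adjusted p = 0.00126, 0.00238 and 0.00650), calls kept without each of the 12 libraries in turn. OXR1A-/- males against OXR1A-/- females, Ctsb, the lysosomal protease cathepsin B, fell by 0.52 (limma adjusted p = 0.0193), a call lost without OXR1A-/- male 1 or any 1 OXR1A-/- female (adjusted p 0.0560 to 0.0834).

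Of 9 factors that bind class II promoters or turn class II over, none passed limma in males, although all 9 differences were positive with a median of 0.31. The smallest p-values belonged to Nfya, a subunit of the Y box factor (0.62 ± 0.17, SE; limma adjusted p = 0.0743), and March1, a ubiquitin ligase that removes class II from the surface (0.73 ± 0.21; limma adjusted p = 0.0743). Both passed in a pair of alternatives each, March1 with a pseudocount of 0.1 (limma adjusted p = 0.04996) or without OXR1A-/- male 3 (0.0278) and Nfya with the length trend removed (0.0383) or without OXR1A-/- male 3 (0.0483). WT males against WT females, Nfya and Rfx5, a subunit of the X box factor, fell by 0.77 and 0.81 (limma adjusted p = 0.0148 and 0.0490) and the other 7 did not pass. WT male 2 was the lowest of the WT males in both, at 1.51 FPKM for Nfya and 1.26 FPKM for Rfx5. The call of Nfya was lost without WT female 1 (limma adjusted p = 0.0566), and that of Rfx5 in 9 of the 12 cases, all but those without OXR1A-/- male 2, WT male 1 or OXR1A-/- female 2 (up to 0.136; -0.51 without WT male 2).

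On the route from interferon gamma to Ciita, 1 of 7 tested genes rose in OXR1A-/- against WT males and 6 did not pass. It was Ifngr2, a chain of the receptor, with 0.71 ± 0.16 (SE), limma adjusted p = 0.0422, a call kept in 2 of the 12 cases of a left-out library, those of OXR1A-/- males 1 and 3 (up to 0.126; 0.56 without OXR1A-/- male 2). Ifng itself, made by T and NK cells, was listed at 1.07 FPKM in OXR1A-/- male 2 and at 0.12 FPKM or less in the other 11 libraries, 0 in all 3 WT males. In WT males against WT females Ifngr2 fell by 0.78 (limma adjusted p = 0.00871), kept in 12 of 12 cases, and the other 6 did not pass.

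None of 14 genes of the class I pathway passed limma in males, although all 14 differences were positive with a median of 0.64 and 4 had the smallest p-values: H2-D1 (0.75 ± 0.30, SE; limma adjusted p = 0.164), Tapbp (0.74 ± 0.33; 0.203), B2m (0.51 ± 0.23; 0.206) and H2-K1 (0.52 ± 0.26; 0.249). Leaving out OXR1A-/- male 2, the median was 0.14, 10 of the 14 were positive, and these 4 stood at 0.29, 0.22, 0.17 and 0.12. In WT males against WT females all 14 were negative with a median of -0.82 and none passed; Tap2, a subunit of the peptide transporter (-0.92 ± 0.30, limma adjusted p = 0.0616), and Tapbp (-0.91 ± 0.33, limma adjusted p = 0.0862) passed without OXR1A-/- male 2, at limma adjusted p-values of 0.00225 and 0.00108, and Tap2 also without OXR1A-/- male 3 (0.0402). Neither of the 2 tested costimulation genes passed in males; Cd86 had 0.56 ± 0.23 (SE; limma adjusted p = 0.162) and Cd274 had 1.26 ± 0.61 (0.232), against 0.27 and 0.28 without OXR1A-/- male 2, with Cd274 at 14.5 FPKM in OXR1A-/- male 2 and 0.41 to 3.03 FPKM elsewhere.

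**Figure D4:**
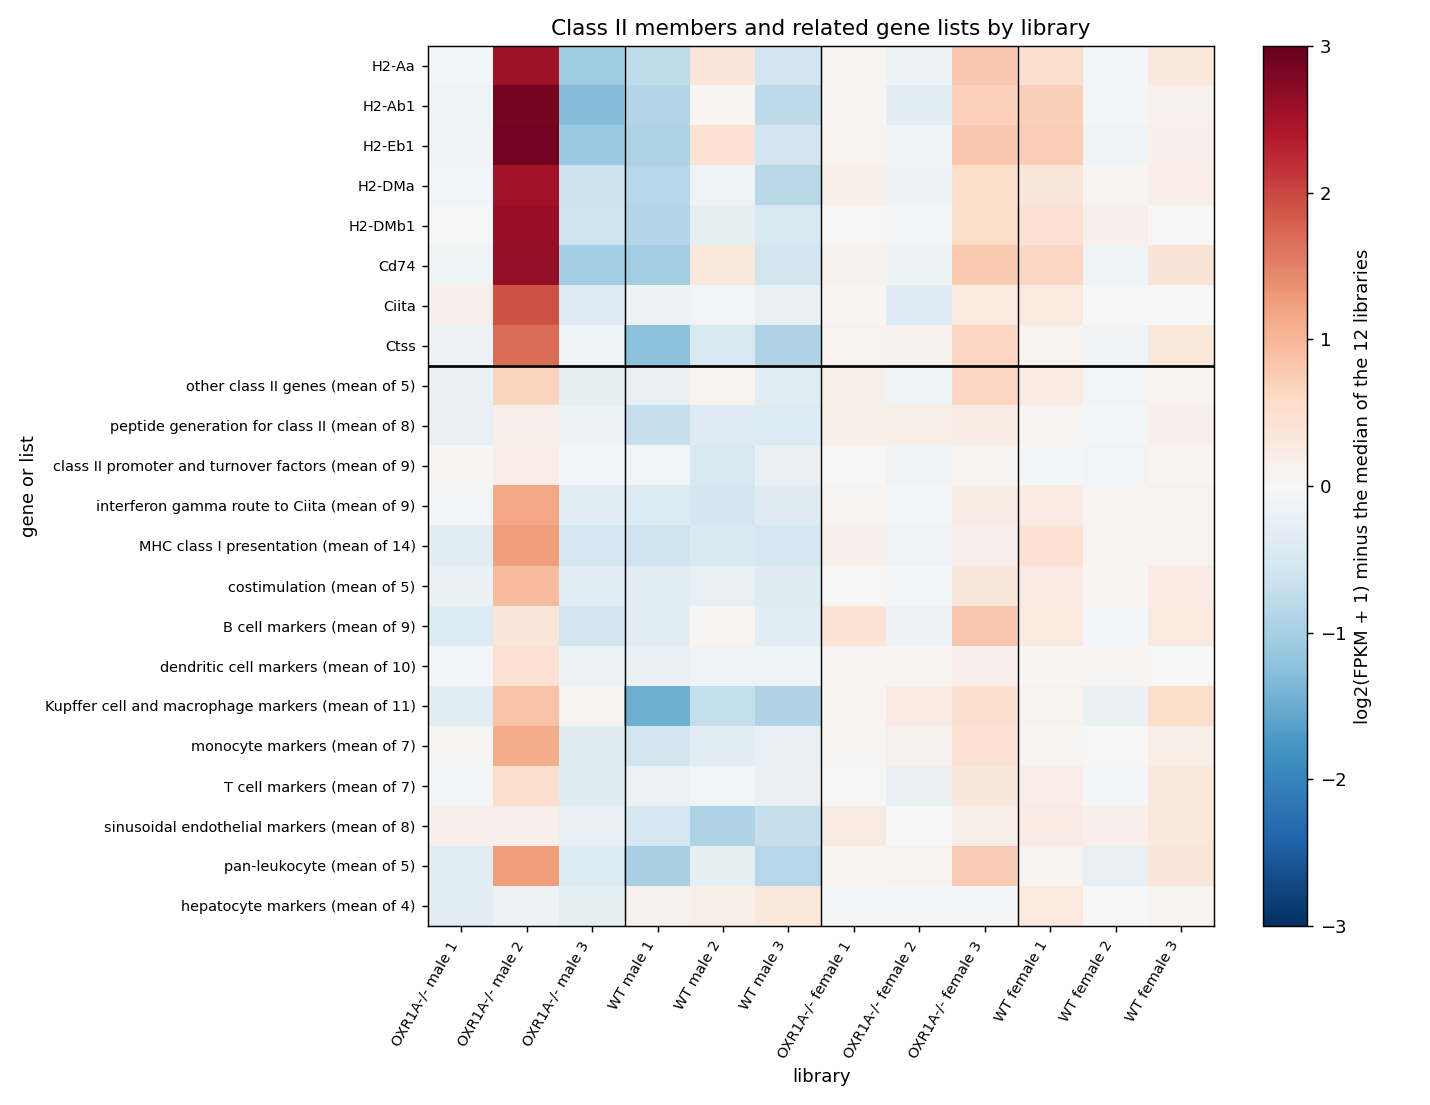
The 8 members (above the line) and the mean over each gene list (below), as log2(FPKM + 1) minus the median of the 12 libraries, with libraries in columns by group. OXR1A-/- male 2 is red in all 8 members and in the class I, interferon gamma, pan-leukocyte and monocyte lists, whereas the Kupffer cell list is blue in all 3 WT males.

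Markers of the cells that carry class II were read beside these values, and their part in the results was not tested. They did not all run alike: OXR1A-/- male 3, the lowest library in the chains, had a Kupffer cell sum of 450 FPKM, against 335 FPKM in OXR1A-/- male 1. Kupffer cell and macrophage markers (11 genes, none at 0) summed to 335 to 783 FPKM in OXR1A-/- males, 150 to 291 FPKM in WT males, 466 to 609 FPKM in OXR1A-/- females and 385 to 594 FPKM in WT females. All 3 OXR1A-/- males lay above all 3 WT males in this sum. In males 6 of the 11 rose and 5 did not pass; Cd5l, secreted by Kupffer cells, rose by 1.45 ± 0.26 (SE; limma adjusted p = 0.0213), Emr1, which encodes F4/80, by 1.51 ± 0.29 (0.0277), Timd4, a receptor for dying cells, by 1.38 ± 0.29 (0.0344) and Vsig4, a complement receptor, by 1.0 ± 0.19 (0.0276). Without OXR1A-/- male 2 only Cd5l (1.11, limma adjusted p = 0.0334) and Emr1 (1.12, 0.0476) of the 11 passed. The calls of Cd5l, Vsig4 and Emr1 were also lost without WT male 1 or 3, that of Emr1 without WT male 2 too, and that of Timd4 in 8 of the 12 cases (limma adjusted p up to 0.103). In WT males against WT females 8 of the 11 fell and 3 did not pass, led by Vsig4 (-1.42 ± 0.19, limma adjusted p = 0.000852), Cd5l (-1.52 ± 0.26; 0.00384) and Clec4f, a Kupffer cell lectin (-1.06 ± 0.19; 0.00539). Averaged over the sexes Vsig4 alone of all list genes passed, at 0.66 (limma adjusted p = 0.0468). That call was lost without OXR1A-/- male 2, where 0 of the 11 passed, and its other left-out cases are not given.

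B cell markers were compared in the same way. Their 9 genes, none at 0, summed to 7.57 to 24.1 FPKM in OXR1A-/- males and 9.93 to 18.2 FPKM in WT males, with 13.7 to 36.8 FPKM in OXR1A-/- females and 15.3 to 22.5 FPKM in WT females. The highest sum was that of OXR1A-/- female 3. Within the males of each genotype the highest sums were those of OXR1A-/- male 2 and WT male 2, as for the members. The same held for the Kupffer cell, dendritic cell, T cell, pan-leukocyte and class I sums, so it is not particular to B cells. Over the 11 libraries without OXR1A-/- male 2, the 8 tested B cell genes had Pearson r of 0.68 (Fcer2a) to 0.90 (Cd37) with the mean of the chains and Cd74, and over all 12 of 0.40 (Blnk) to 0.76 (Cd37), as a description of libraries that share depth and composition. Genes of other lists reached such values too. Over the 11 libraries r was 0.15 (Marco) to 0.68 (Clec4f) in Kupffer cell genes and 0.53 (Itgam) to 0.75 (Cx3cr1) in monocyte genes. It was -0.19 (Zbtb46) to 0.80 (Clec9a) in dendritic cell genes and 0.03 (Cd4) to 0.93 (Cd3g) in T cell genes. Class I genes had 0.11 (Erap1) to 0.89 (Psmb8), and over all 12 libraries 0.52 to 0.96. Of the B cell genes in males 0 of 8 tested passed limma, with a median difference of 0.01 (-0.31 without OXR1A-/- male 2). In WT males against WT females Blnk, a signalling adaptor of B cells, fell by 1.07 (limma adjusted p = 0.0210), a call lost without WT male 1, WT female 1 or WT female 2, and the other 7 did not pass. Dendritic cell markers, 10 genes of which 3 were tested and Flt3 was listed at 0 in OXR1A-/- male 3, summed to 3.73 to 13.7 FPKM in OXR1A-/- males, 3.67 to 4.35 FPKM in WT males, 6.23 to 7.46 FPKM in OXR1A-/- females and 5.81 to 6.22 FPKM in WT females, the highest being OXR1A-/- male 2. None of the 3 passed in the male, female or WT sex comparison. Monocyte markers (7 genes) summed to 51.4 FPKM and T cell markers (7 genes) to 10.8 FPKM in OXR1A-/- male 2, against 8.10 to 27.5 and 2.54 to 9.20 FPKM in the other 11 libraries. The sum of sinusoidal endothelial markers did not single that library out, at 95.3 to 106 FPKM in OXR1A-/- males and 63.1 to 72.8 FPKM in WT males. It was 118 to 124 FPKM in OXR1A-/- females and 115 to 132 FPKM in WT females. Single genes differed: Lyve1 stood at 5.95-fold the WT male mean in OXR1A-/- male 2 and 3.05-fold in the mean of OXR1A-/- males 1 and 3. Stab2, Stab1, Clec4g and Kdr were lower in OXR1A-/- male 2 than in that mean. In OXR1A-/- against WT males 4 of 8 endothelial markers rose (0 without OXR1A-/- male 2), and in WT males against WT females 7 of 8 fell. Hepatocyte markers (4 genes) summed to 42680 to 44520 FPKM in OXR1A-/- males and 51020 to 59940 FPKM in WT males, without overlap, and 0 of the 4 passed limma. Pan-leukocyte genes (5) summed to 167 FPKM in OXR1A-/- male 2 and 21.2 to 99.6 FPKM elsewhere. In WT males against WT females, 2 of 5 tested T cell genes fell and 1 rose: Cd8b1 had -0.86 ± 0.23 (SE; limma adjusted p = 0.0292), Cd3d -0.70 ± 0.21 (0.0477) and Cd4 0.67 ± 0.19 (0.0414). In the same comparison Laptm5, a lysosomal protein of leukocytes, was the only 1 of the 5 pan-leukocyte genes that fell (-1.16 ± 0.31; limma adjusted p = 0.0335), and 2 of 3 neutrophil genes fell, S100a8 (-0.97 ± 0.18; 0.00595) and Csf3r (-0.57 ± 0.15; 0.0322). The call of S100a8 was kept without each library in turn; that of Csf3r was lost without WT male 1 or 2 or WT female 1 or 3, that of Laptm5 without any 1 of the 6 WT libraries, and that of Cd8b1 without any WT male or WT female 1 or 3. The call of Cd3d was lost without OXR1A-/- male 1, WT male 2 or 3, OXR1A-/- female 1 or any WT female. That of Cd4 was lost without OXR1A-/- male 1, WT male 3, OXR1A-/- female 1 or any WT female. Cd4 was low, at means of 1.11 FPKM in WT males and 0.327 FPKM in WT females. It was tested in only 9 of the 12 cases of a left-out library, failing the filter in the rest, and its call was kept in 3.

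The 10 tested genes outside the members whose values ran most like the mean log2(FPKM + 1) of H2-Aa, H2-Ab1, H2-Eb1 and Cd74 over the 12 libraries were Cxcl9 (Pearson r = 0.96), Psmb8 (0.96), Xcl1 (0.95), Vim (0.95), Col1a1 (0.95), Pkm (0.95), Ms4a6b (0.94), Sash3 (0.94), Itgb7 (0.94) and Ptpn18 (0.94). These figures describe likeness in 12 libraries of which OXR1A-/- male 2 lies far from the rest. Over the 11 others the order was headed by Deaf1 (0.95), Ltb (0.95), Gimap3 (0.94), Ptpn22 (0.94), Cd2 (0.93) and Cd3g (0.93), and only Ptpn18 (0.91) stood in both sets of 10. The rest of the 10 over these libraries were Tada3 (0.91), Pold1 (0.91) and Serpinh1 (0.91). Ltb, Cd2 and Cd3g are lymphocyte genes. The other tested genes of the T cell list ran lower, at 0.75 (Lck), 0.60 (Cd3d), 0.48 (Cd8b1) and 0.03 (Cd4). Cd2 stood at 0.78, 3.07 and 0.29 FPKM in OXR1A-/- males, against 0.51, 1.73 and 0.57 FPKM in WT males. In females Cd2 stood at 1.48, 1.23 and 3.72 FPKM in OXR1A-/- livers, against 1.76, 0.95 and 2.09 FPKM in WT livers. Cxcl9 fell out of the first 10 in that set.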

How the data were processed

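Liver RNA of 12 libraries was analysed, 3 in each group by genotype and sex in the labels. The deposited values are FPKM per the file headers, for 18560 genes at 2 decimals; TopHat2 and mouse build mm10 are named in the submitters' processing notes, while the quantifier, the annotation, the strand setting and the number of reads are, in the sources used here, not given. Per-sample columns left unused numbered 0. Tests were run by limma 3.58.1 in R 4.3.3 on log2(FPKM + 1), for the 11514 genes that reached 1 FPKM in 3 or more libraries, with 1 mean per group over all 12 libraries, a variance trend on the mean, two-sided tests and Benjamini-Hochberg adjustment over all tested genes; calls are at an adjusted p under 0.05. Because of the pseudocount of 1, a log2 difference is smaller than the true change where FPKM are low; a fold is a mean FPKM divided by another. The procedure was tested on simulated data. Depth is unknown except in relative terms, so no counting intervals are given. The labels do not say whether samples of a group are separate animals, and a p-value here reflects only how far these samples differ, in which technical variation may share. No pair of libraries shared more than 0.29% of its values (genes of at least 5 FPKM), so each was kept as a sample.

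The members and gene lists were chosen with earlier results of these data known. The text names all 8 members and, of each list, up to 4 genes with the smallest p per comparison, or all where 5 or fewer were tested; the top genes of OXR1A-/- male 2, and H2-Eb2, H2-Ea-ps, Ifng and Flt3, were named after their values were seen. In males 0 of 6 monocyte, 0 of 5 T cell, 0 of 5 pan-leukocyte, 0 of 4 cholangiocyte and 0 of 3 neutrophil genes tested passed limma. Alternatives were another pseudocount, other filters and scalings, removal of a trend with transcript length, fits restricted to the groups of a comparison, a constant prior variance, weights per library, blocking on replicate number, and each library left out in turn; 3 more were added after the data were seen (leaving out OXR1A-/- male 2 with WT male 2, leaving out 3 libraries, and likeness over 11 libraries). The values of 1 list gene are not reported here.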

Additional observations from a re-analysis of the deposited data

How the results depend on the processing

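No member passed in any comparison under any alternative except WT males against WT females, where 3 (H2-DMa, H2-DMb1 and Ctss) fell without OXR1A-/- male 2, in a fit of only the groups compared, and without both OXR1A-/- male 2 and WT male 2 (limma adjusted p = 0.0100, 0.0355 and 0.00316; alternative added after the data were seen). Leaving out 1 library at a time gave 0 to 3 there. In males, without 1 library at a time, H2-Aa ran from -0.23 to 1.57, H2-Ab1 from -0.18 to 1.90, H2-Eb1 from -0.25 to 1.75 and Cd74 from -0.15 to 1.68, the low end always without OXR1A-/- male 2 and the high end without OXR1A-/- male 3; H2-DMb2 ran from -0.14 to 0.86, H2-Ob from -0.13 to 0.48 and H2-Oa from -0.29 to 0.42 (-0.12 after quantile normalization). Over the mean of the sexes the ranges were H2-Aa -0.12 to 0.79, H2-Ab1 -0.15 to 0.90, H2-Eb1 -0.12 to 0.88 and Cd74 -0.09 to 0.82, and for the sex by genotype interaction H2-Aa -0.23 to 1.57, H2-Ab1 -0.07 to 2.02, H2-Eb1 -0.26 to 1.73 and Cd74 -0.12 to 1.71. In OXR1A-/- males against OXR1A-/- females they were H2-Aa -0.80 to 1.0, H2-Ab1 -0.86 to 1.22, H2-Eb1 -0.88 to 1.12, Cd74 -0.83 to 1.0, H2-DMa -0.56 to 1.03, H2-DMb1 -0.49 to 1.13 and Ctss -0.43 to 0.47; without both OXR1A-/- male 2 and WT male 2 the values were -0.80, -0.86, -0.88, -0.83, -0.56, -0.49 and -0.43. In females, where values lie near 0, the ranges were H2-Aa -0.28 to 0.20, H2-Ab1 -0.39 to 0.13, H2-Eb1 -0.26 to 0.26, Cd74 -0.30 to 0.17, H2-DMa -0.19 to 0.15 and H2-DMb1 -0.22 to 0.09. Signs there also turned with array weights (H2-Ab1 0.09, Cd74 0.21, H2-DMa 0.12, H2-DMb1 0.06), with OXR1A-/- male 3, OXR1A-/- female 1 and WT female 1 left out, which carry small other-sex signals (0.15, 0.19, 0.06 and 0.18; added after the data were seen), with the length trend removed (H2-Aa -0.07, H2-Eb1 -0.02) and with quantile normalization (H2-Aa -0.03, H2-Eb1 -0.00, H2-DMa 0.02). In WT males against WT females H2-Oa ran from -0.24 to 0.04, and was 0.06 under median-ratio scaling and 0.25 under quantile normalization. Median-ratio and quantile scaling moved the median of all genes by -0.18 and -0.20 in males and by 0.20 and 0.22 in WT males against WT females; the tested members were then still all positive and all negative. All genes called in males numbered 294, and 3 (only the groups compared) to 888 (length trend removed) over the alternatives, 79 without OXR1A-/- male 2. They numbered 2 in females (0 to 229, the high end with array weights), 168 over the mean of the sexes (8 to 575), 3 for the interaction (1 to 19), 1539 in WT males against WT females (526 to 2368) and 423 in OXR1A-/- males against OXR1A-/- females (121 to 675). A fit of only the groups compared gives no value for the mean of the sexes or the interaction. Whether the replicate numbers pair the samples is not known. Correlations of deviations from the group mean were -0.32 to 0.56 over 18 same-numbered pairs, 6 of them over 0.1, and -0.62 to 0.42 over 36 others. The highest was that of OXR1A-/- male 1 with WT male 1. With 3 libraries a group these values cannot decide it. With the number as a block, 0 members passed in each comparison, and 132 genes passed in males. The causes of these changes were not tested. Depth and 3 libraries a group limit what could be shown: Ciita was too low to test, and the SE of the members were 0.40 to 0.79.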
